A study of Mus musculus with 18 samples.

Results

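The genes examined are the receptors for the colony-stimulating factors: Csf1r, Csf2ra, Csf2rb, Csf2rb2 and Csf3r, 5 of the 22367 protein-coding genes annotated in GENCODE vM1 on mouse genome mm9. The rule names them as the receptors of this cytokine family and sets no threshold on a measured value. Each locus is the annotated gene span plus 30 kb on either side. Csf1r lies on chr18:61265226-61291803 (plus strand) and Csf3r on chr4:125701794-125722219 (plus strand). Csf2ra lies on chr19:61300305-61304321 (minus strand). Csf2rb, on chr15:78156420-78184277 (plus strand), and Csf2rb2, on chr15:78112947-78136052 (minus strand), are neighbouring copies that point away from each other, so their loci overlap and share sites.

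Csf1r encodes the receptor tyrosine kinase for CSF-1 (M-CSF), the cytokine on which macrophages depend for survival, and also binds IL-34. Csf3r is the receptor for G-CSF, which drives neutrophil production. Csf2ra binds GM-CSF and signals only together with a β chain: the product of Csf2rb is shared by the receptors for GM-CSF, IL-3 and IL-5, and that of Csf2rb2, a copy found in the mouse, serves the IL-3 receptor. These genes are active in myeloid cells. PU.1, an ETS factor, and the C/EBP factors, which are basic leucine zipper proteins, are known regulators of several of them in myeloid cells.

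The samples were C10 cells, 1 line derived from HAFTL pre-B cells that carries a GFP-tagged C/EBPα fusion to the hormone-binding part of the estrogen receptor. β-Estradiol sends the fusion to the nucleus and turns the cells into macrophage-like cells (iMΦ). ChIP-seq libraries of C/EBPα (8, at 0 hpi, 10, 30 and 60 min, and 3, 12, 24 and 48 hpi), C/EBPβ (5) and PU.1 (5, both at 0, 3, 12, 24 and 48 hpi) were examined, with 1 library per factor and time point. Induced cells received 100 nM β-estradiol per the labels (the methods give another concentration), and their medium held CSF-1 and IL-3 at 10 nM, the former being the ligand of Csf1r and the latter acting through the β chains. Control cells received the solvent, ethanol. The 100 nM is listed alike for all libraries, those of 0 hpi included. The C/EBPα libraries of 10, 30 and 60 min were sequenced on another instrument and with longer reads than the rest, so those times and the sequencer cannot be told apart. RNA was not measured in these libraries, and neither the cell type nor the output of the genes was checked.

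Each factor and time had 1 library, so no test between libraries was made. Unless stated otherwise, values are reads within 200 bp of the centre of a site per 10000000 reads of the library, with 95% exact Poisson intervals in brackets. These intervals cover counting error only. A site is a place where a region of read enrichment was called in at least 1 library, and it is named by its distance from the start of the gene span. Libraries held 2903580 to 24917810 reads. The C/EBPβ library of 12 hpi was the smallest and had 2250 called regions in the whole genome, against 6345 to 14783 in the other C/EBPβ libraries after induction, and the PU.1 library of 12 hpi had the most regions of any (72042).

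All 5 loci carried sites of the 3 factors, as did 47.2% of all protein-coding loci. There were 80 sites in all, 23 at Csf1r, 11 at Csf2ra, 22 at Csf2rb, 25 at Csf2rb2 and 13 at Csf3r, where the median protein-coding locus had 7. By number of sites Csf2ra stood at percentile 66.6 of all loci and Csf3r at 75.02, and the other 3 between 93.8 and 95.8. PU.1 was called at 57 of the 80, C/EBPα at 35 and C/EBPβ at 17, and with a tag threshold 1.5 times higher at 45, 20 and 8. Of all 125645 sites in the genome, 92434 were called for PU.1, 47671 for C/EBPα and 18134 for C/EBPβ. At 41 of the 80 PU.1 was called and neither C/EBP factor was (74028 in the genome). At 20 C/EBPα was called and PU.1 never at the same site (30473 in the genome). Of these 20, 7 had a site called for PU.1 within 1000 bp, the distance within which the paper took factors to intersect. The share of this in the genome was not counted. By annotation 38 sites were intergenic, 27 intronic, 7 in coding exons, 7 in UTRs and 1 in another exon.

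PU.1 was on the receptor loci before induction, and most C/EBP regions were called only after it. At 0 hpi a PU.1 region was called at all 5 loci (69.4% of all protein-coding loci had one) and at 48 hpi again at all 5 (74.5% of all). A C/EBPα region was called at 0 hpi in 2 loci, Csf2rb and Csf2rb2, which share that site (13.1% of all). At 60 min all 5 loci had one (56.9% of all), and at 48 hpi all 5 still did (36.2% of all). C/EBPβ was called at 0 hpi in the Csf2ra locus alone (3.87% of all) and at 48 hpi in all 5 (45.6% of all). The calling windows of 0 hpi were narrower, 68 bp for C/EBPα and 56 bp for C/EBPβ, against 124 to 159 bp and 75 to 127 bp later. At Csf2ra -16.5 kb 12.4 C/EBPα reads were not called at 0 hpi, and 11.8 were called at 60 min. C/EBP calls before and after induction thus do not compare by one rule. A single site called for all 3 factors at 48 hpi occurred at Csf1r, Csf2rb and Csf2rb2, 3 of the 5 (17.7% of all). A single site with PU.1 at 0 hpi and C/EBPα at 48 hpi occurred at 4 of the 5, every locus but that of Csf3r (15.4% of all). PU.1 regions were thus common at loci in general. With 5 genes, of which Csf2rb and Csf2rb2 share sites, the counts describe these loci and nothing more.

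**Figure D1:**
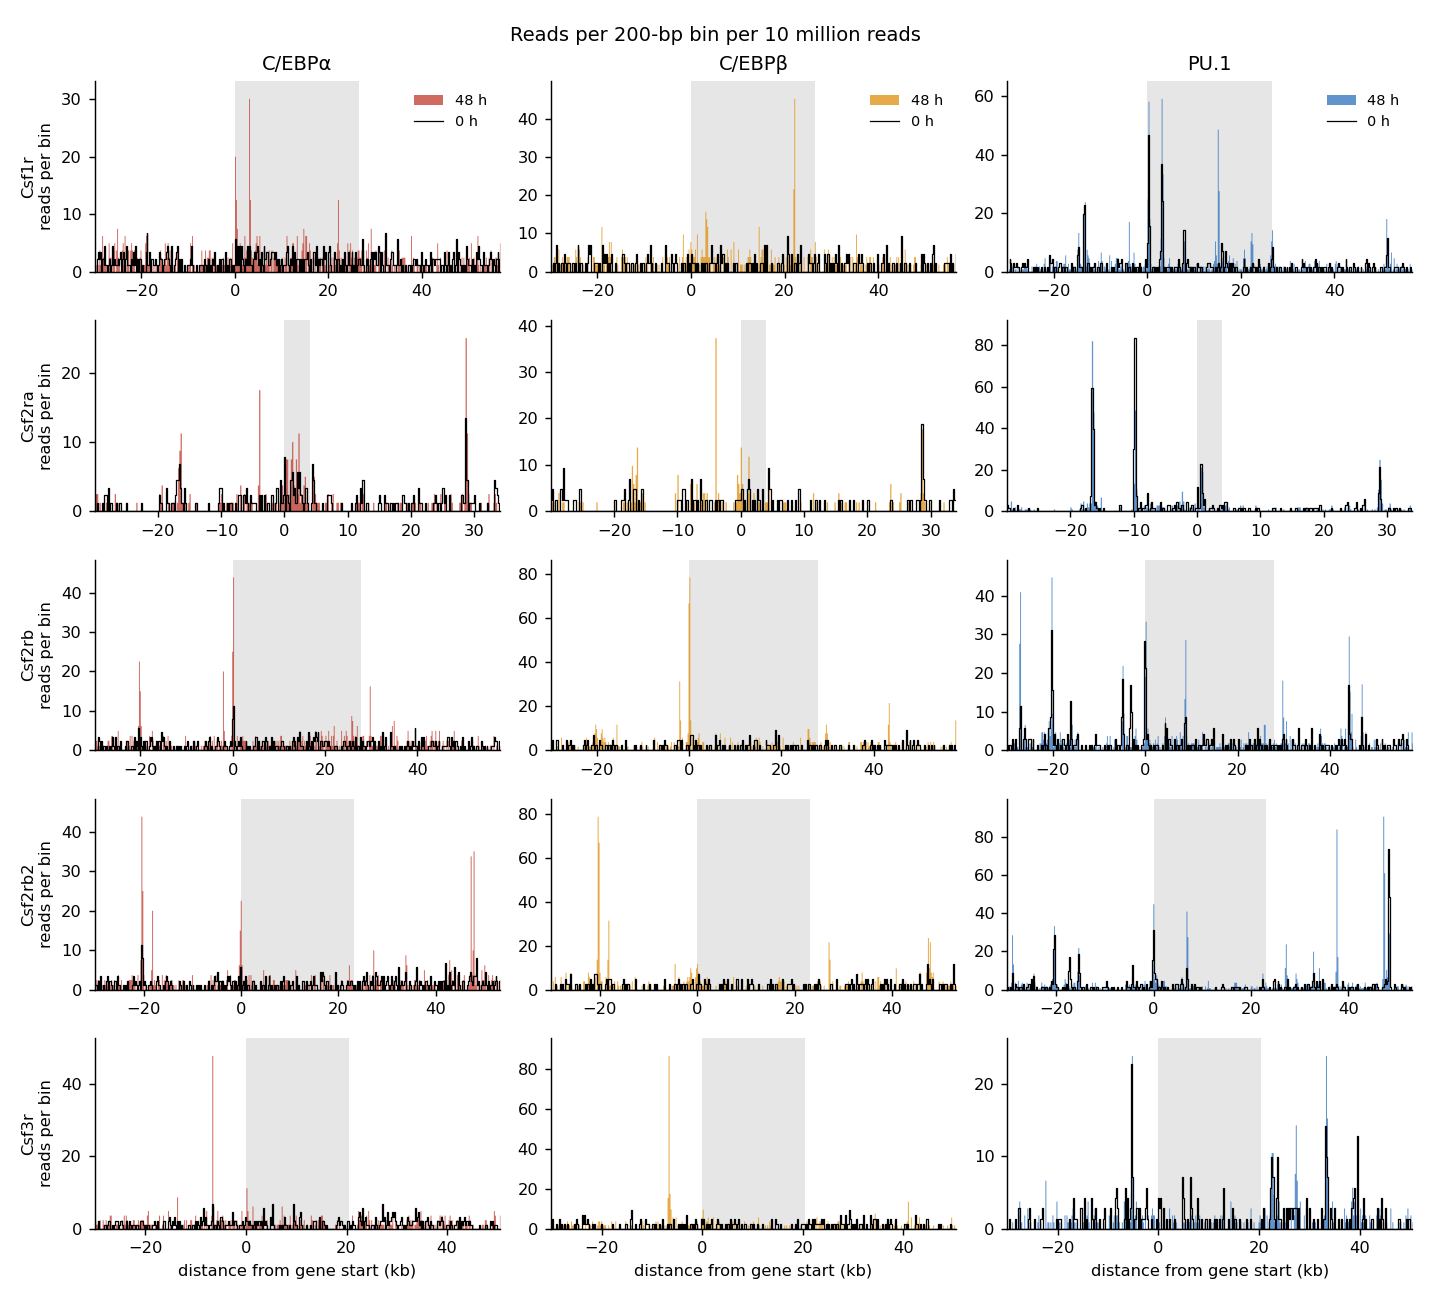
Reads per 200-bp bin per 10000000 reads (vertical axis) against distance from the gene start in kb (horizontal axis) for the 5 loci (rows) and the 3 factors (columns), with 0 hpi as a black line, 48 hpi as a coloured area and the gene span shaded. At 0 hpi both C/EBP factors are low but for +28.6 kb from the start of Csf2ra and, for C/EBPα alone, the start of Csf2rb. Of the 80 sites 19 were called for PU.1 at both times, 19 at 48 hpi and not at 0 hpi, and 3 at 0 hpi and not at 48 hpi. The PU.1 library of 48 hpi held more reads, 10465876 against 7052065 at 0 hpi. The matching shares over all sites of the genome were not counted.

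C/EBPα was called at few member sites up to 10 min and at more from 30 min on. The number of member sites called for C/EBPα was 1 at 0 hpi, 3 at 10 min, 13 at 30 min, 18 at 60 min, 21 at 3 hpi, 18 at 12 hpi and 15 at both 24 and 48 hpi. Calling at 0 hpi used a window of 68 bp, narrower than the 124 to 159 bp of later times. Of the 35 sites, 20 were first called by 60 min, and 5 of these were not called later, while 15 were called from 3 hpi on only. How all C/EBPα sites of the genome divide in this way was not counted, so whether the division is particular to these loci is not known. The C/EBPα libraries of 10 min to 3 hpi held 11129639 to 24917810 reads and those of 12 to 48 hpi 5970869 to 7956987, and a region needed 9 to 12 reads in the former and 7 or 8 in the latter, so the counts of calls do not compare the times at one depth. The median over the 35 sites, in reads per 10000000, was 4.51 at 0 hpi, 3.21 at 10 min, 6.92 at 30 min, 7.17 at 60 min and 16.2 at 3 hpi, and then 13.4, 14.5 and 13.8 at 12, 24 and 48 hpi. The 35 sites were chosen by calls in these same libraries. In a smaller library a call needs more reads per 10000000, so sites called there alone are high there by choice. The medians therefore do not compare the times free of depth either. As counted, they were higher from 12 hpi on than at 30 and 60 min. The number called at 24 and 48 hpi was lower than at 60 min. The library with the most reads was that of 3 hpi at 10 sites and that of 12 hpi at 12 sites, and the matching shares in the genome were not counted. In the genome as a whole the number of C/EBPα regions rose from 2283 at 0 hpi to 29108 at 60 min. It then fell to 24458, 14052, 10476 and 8814 at 3, 12, 24 and 48 hpi. From 60 min to 3 hpi the genome number thus fell while that of member sites rose, and its later fall was steeper. The part of the genome number in the counts at these loci was not tested.

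C/EBPβ was called at 1, 5, 1, 8 and 15 sites at 0, 3, 12, 24 and 48 hpi, where the whole genome had 667, 6852, 2250, 6345 and 14783 C/EBPβ regions, and 8 of its 17 sites were called at 48 hpi alone. The calling windows of 0 and 12 hpi, 56 and 75 bp, were narrower than the 110 to 127 bp of the other times. At 48 hpi C/EBPβ shared 12 of its 15 sites with C/EBPα, which then had 15 sites as well. PU.1 was called at 22, 27, 45, 41 and 38 sites at 0, 3, 12, 24 and 48 hpi, and in the whole genome at 33670, 40098, 72042, 54625 and 49781 regions. For both factors the counts at these loci moved up and down with those of the genome, whose part in them was not tested. PU.1 was called in all 5 of its libraries at 18 sites, and 20 of its sites were first called at 12 hpi. The matching shares over all sites of the genome were not counted, for these counts or for the sites of C/EBPβ shared with C/EBPα or called at 48 hpi alone. Whether they are particular to these loci is therefore not known.

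**Figure D2:**
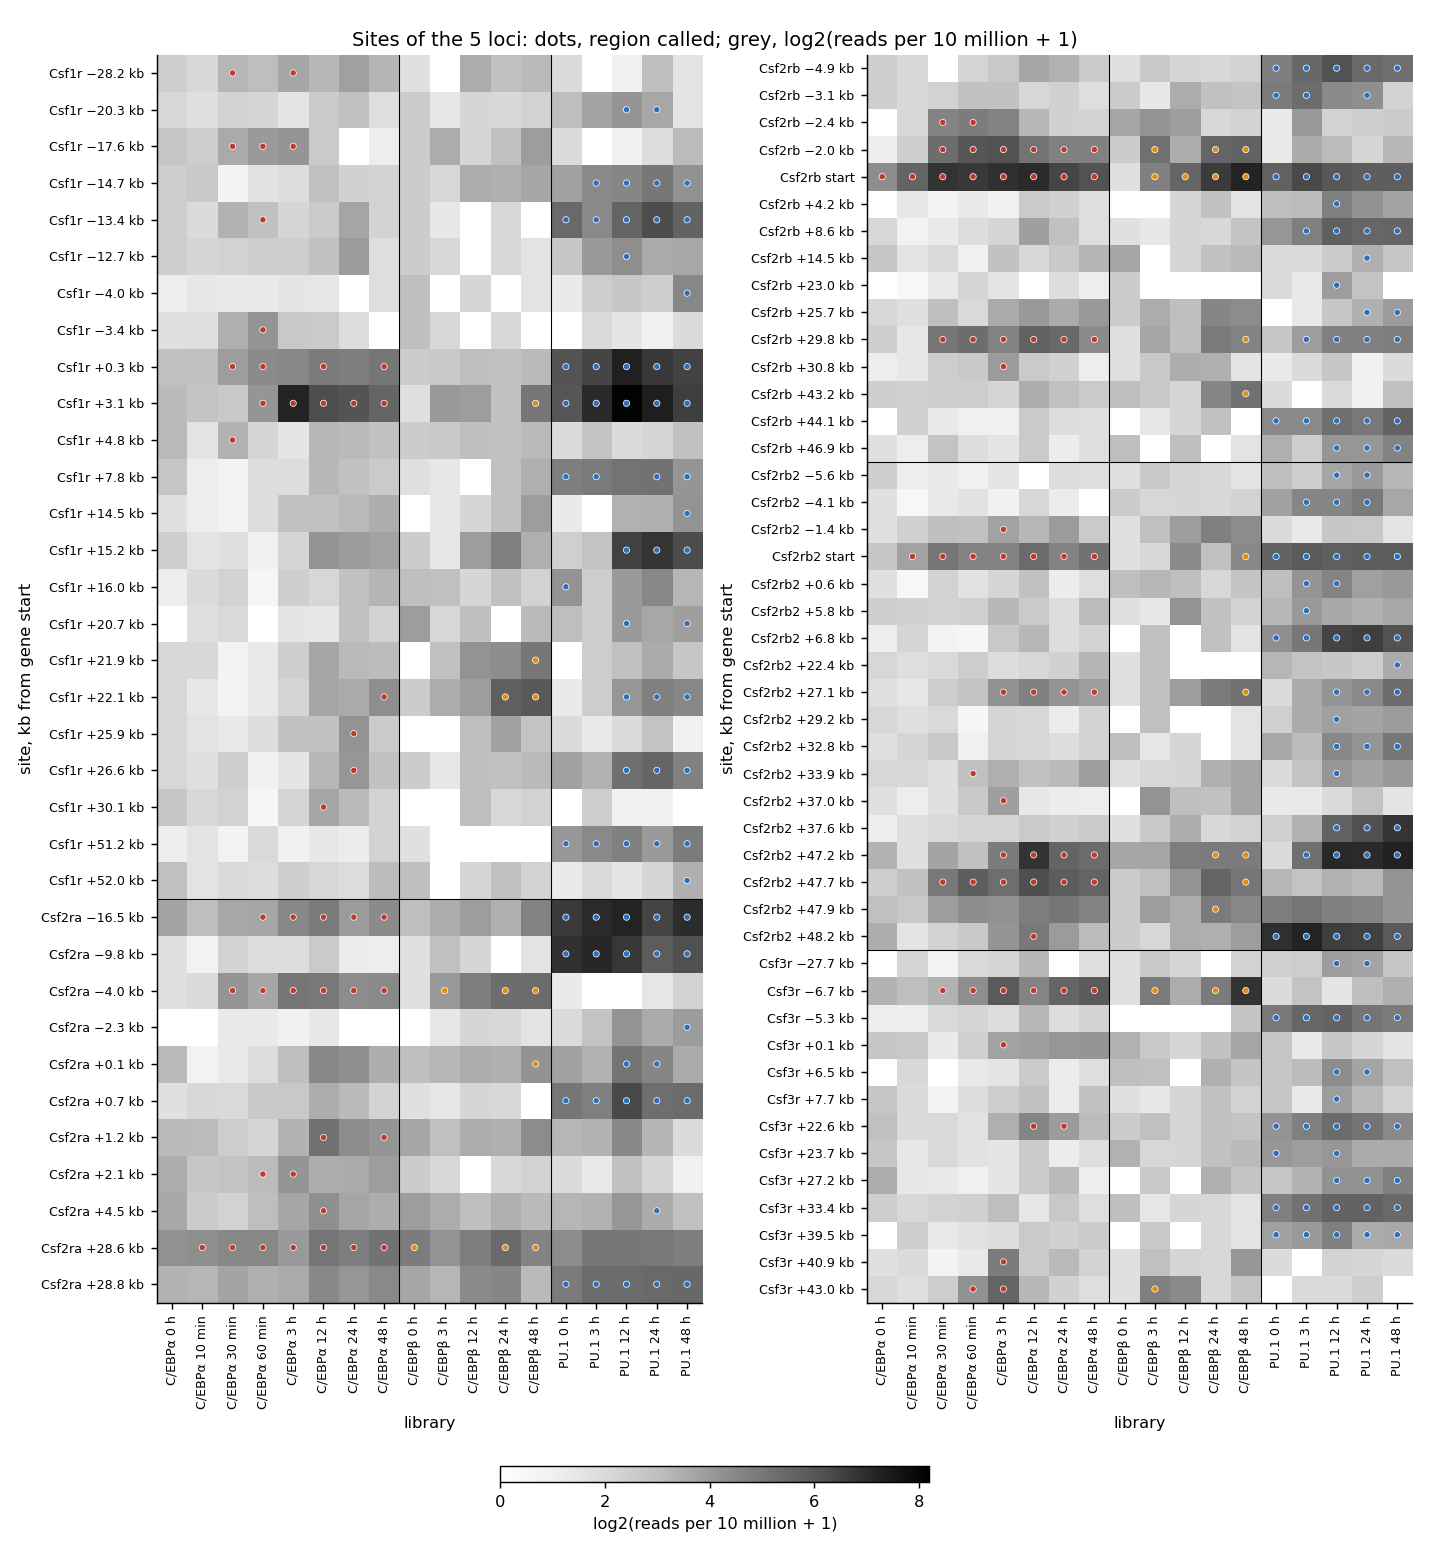
The 80 sites (rows, by distance in kb from the gene start) in the 18 libraries (columns), shaded by log2(reads per 10000000 + 1), with a coloured dot where a region was called (red C/EBPα, orange C/EBPβ, blue PU.1). The Csf2rb start is the row with dots in 17 of the 18 libraries, and C/EBPβ dots gather in the 48-hpi column.

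Csf1r was occupied by PU.1 at its start and in the intron behind it before induction, and C/EBPα was called there after it. Its strongest site, Csf1r +3.1 kb, lies in an intron near the start of the gene, the stretch known to hold the enhancer called FIRE. C/EBPα reads there were 7.89 (3.17 to 16.3) at 0 hpi, 6.02 at 10 min and 5.38 at 30 min, then 16.4 at 60 min and 145 (123 to 169) at 3 hpi, and 73.7, 65.9 and 45.2 (31.7 to 62.6) at 12, 24 and 48 hpi. The first 3 values lie within one another's intervals, the value at 3 hpi stands above all others with no overlap, and the last stays above the first. From 0 to 48 hpi C/EBPα rose 5.73-fold, a log2 ratio of 2.52 (1.33 to 3.93).

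PU.1 at the same Csf1r site counted 63.8 (46.5 to 85.4) reads at 0 hpi, 134 at 3 hpi, 269.8 (239.5 to 303) at 12 hpi, 162 at 24 hpi and 95.5 (77.7 to 116) at 48 hpi. It was highest at 12 hpi, when the library also had the smallest share of reads away from called regions of all PU.1 libraries (66.8%, against 76.0% to 80.1%), and the part of this in the peak was not tested. The values of 0 and 48 hpi have overlapping intervals, although the interval of their log2 ratio, 0.58 (0.06 to 1.12), lies above 0. C/EBPβ was called there at 48 hpi only, its reads being 2.33 (0.06 to 13.0), 15.4, 13.8, 6.40 and 31.5 (18.02 to 51.2) over the 5 libraries.

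The start of Csf1r itself (Csf1r +0.3 kb, 9 bp from another annotated start of the gene, in a UTR) was also called for PU.1 at all times, and for C/EBPα from 30 min on, though not at 3 and 24 hpi. PU.1 reads were 68.1, 85.2, 154, 105 and 88.9 at 0, 3, 12, 24 and 48 hpi. C/EBPα counted 6.77 (2.48 to 14.7), 6.82, 13.8, 19.96, 21.6, 28.5, 26.4 and 31.4 (20.3 to 46.4) reads in its 8 libraries, the last above the first without overlap. C/EBPβ stayed between 4.67 and 7.88 and was never called.

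Further into Csf1r, PU.1 and C/EBPβ were called at sites with few reads in pre-B cells. At Csf1r +15.2 kb PU.1 counted 4.25 (0.88 to 12.4) and 6.08 reads at 0 and 3 hpi, then 91.5, 110.1 and 76.4 (60.6 to 95.1) at 12, 24 and 48 hpi, a log2 ratio of 4.17 (2.57 to 6.48) from 0 to 48 hpi. Neither C/EBP factor was called at this site. At Csf1r +22.1 kb C/EBPβ reads were 4.67, 10.3, 13.8, 51.2 and 59.1 (39.9 to 84.4) over its 5 libraries, and C/EBPα counted 18.9 (10.6 to 31.1) at 48 hpi. Levels of different factors come from different antibodies and are not compared with each other. PU.1 there counted 1.42 (0.04 to 7.90), 4.56, 15.9, 25.6 and 22.0 (13.9 to 33.0) reads. All 3 factors were thus called at +22.1 kb at 48 hpi, and a second C/EBPβ region at +21.9 kb belongs to the same stretch.

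Csf2ra had PU.1 at a pair of upstream sites in pre-B cells, and one of them was also called for C/EBPα from 60 min on. At its strongest site, Csf2ra -16.5 kb, PU.1 counted 101 (78.6 to 127), 131, 144, 87.2 and 128 (107 to 152) reads at 0, 3, 12, 24 and 48 hpi. The intervals of 0 and 48 hpi overlap. C/EBPα counted 12.4 (6.19 to 22.2) reads at 0 hpi, 7.22 at 10 min, 11.5 at 30 min, 11.8 at 60 min, 21.6 at 3 hpi, 28.5 at 12 hpi, 14.5 at 24 hpi and 20.1 (11.5 to 32.7) at 48 hpi. Its intervals of 0 and 48 hpi overlap as well, so no rise in reads could be shown at this depth. At Csf2ra -9.8 kb PU.1 fell from 118 (93.7 to 146) at 0 hpi to 70.7 (55.5 to 88.8) at 48 hpi, with 139.9, 106 and 55.5 between, and no C/EBP factor was called.

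The C/EBP factors had a site of their own at Csf2ra -4.0 kb. C/EBPα counted 2.26 (0.27 to 8.15) reads at 0 hpi, 2.81 at 10 min and 16.1 at 30 min, and then 11.8, 32.3, 30.1, 19.8 and 21.4 (12.4 to 34.2) at 60 min and 3, 12, 24 and 48 hpi. C/EBPβ reads there were 2.33, 15.4, 27.6, 38.4 and 39.4 (24.1 to 60.9) over its 5 libraries, while PU.1 had at most 3.82. The only C/EBPβ region at 0 hpi in the 5 loci was at Csf2ra +28.6 kb. Every library had reads there, from 15.3 (C/EBPα, 3 hpi) to 41.6 (C/EBPβ, 24 hpi), also those without a call. A PU.1 site called in all 5 PU.1 libraries, Csf2ra +28.8 kb, lies so close that the windows overlap and some reads can count at both. The calls of both C/EBP factors at +28.6 kb, 7 for C/EBPα and 3 for C/EBPβ, are therefore given here as calls and are not described as a change over time.

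The strongest sites of Csf2ra and Csf3r are shown. The former was called for PU.1 and C/EBPα, the latter for C/EBPα and C/EBPβ and not for PU.1. Both are stretches of mm9 that reach 75 bp to either side of the site centre, written 5′ to 3′ on the strand of the gene, at chr19:61320769-61320919 (minus strand) and chr4:125695018-125695168 (plus strand). Capitals mark matches to the C/EBP sequence TTGCNNAA or its shorter form GCAAT, and to the PU.1 sequence GAGGAAGT or its shorter form GGAAGT, on either strand.
Csf2ra -16.5 kb: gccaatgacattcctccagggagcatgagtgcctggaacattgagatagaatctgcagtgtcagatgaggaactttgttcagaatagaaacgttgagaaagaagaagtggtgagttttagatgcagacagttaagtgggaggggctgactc
Csf3r -6.7 kb: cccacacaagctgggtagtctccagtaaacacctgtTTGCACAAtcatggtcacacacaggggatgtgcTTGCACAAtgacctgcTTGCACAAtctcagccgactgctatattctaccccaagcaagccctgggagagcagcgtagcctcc

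The Csf3r sequence holds 3 copies of TTGCNNAA, each of them TTGCACAA, and no match to the PU.1 forms, whereas the Csf2ra window has no match to any of the 4. The strongest site of Csf3r was called for the C/EBP factors and not for PU.1. The one site of the locus called for both C/EBPα (at 12 and 24 hpi, with 23.4 and 14.5 reads) and PU.1 (in all 5 libraries) was Csf3r +22.6 kb, in a coding exon of Mrps15. At Csf3r -6.7 kb C/EBPα counted 9.02 (3.89 to 17.8) reads at 0 hpi, 7.22 at 10 min, 9.23 at 30 min, 18.9 at 60 min, 57.5 at 3 hpi, 23.4 at 12 hpi, 44.8 at 24 hpi and 56.6 (41.3 to 75.7) at 48 hpi. The log2 ratio from 0 to 48 hpi was 2.65 (1.55 to 3.94). C/EBPβ counted 2.33 (0.06 to 13.0), 29.1, 10.3, 28.8 and 114 (86.8 to 148) reads over its 5 libraries, the largest value being that of 48 hpi, which no other interval reached. PU.1 had between 1.87 and 9.55 reads there and was never called.

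PU.1 sat nearby, at Csf3r -5.3 kb, with 29.8 (18.4 to 45.5), 44.1, 47.6, 32.6 and 27.7 (18.6 to 39.8) reads at 0, 3, 12, 24 and 48 hpi, values whose intervals overlap from first to last. No C/EBP factor was called at that site. A second C/EBP site of the locus, at Csf3r +43.0 kb in an intron of the neighbouring gene Oscp1, was called at 60 min and 3 hpi for C/EBPα and at 3 hpi for C/EBPβ. C/EBPα reads there were 4.61 at 30 min, 17.9 at 60 min, 45.8 (34.1 to 60.2) at 3 hpi, 8.37 at 12 hpi and 2.51 (0.30 to 9.08) at 48 hpi, and C/EBPβ counted 25.7 (14.4 to 42.3) at 3 hpi, 20.7 (7.58 to 44.98) at 12 hpi, 3.20 at 24 hpi and 5.91 (1.22 to 17.3) at 48 hpi. The values at 3 and 48 hpi do not overlap for C/EBPα and do for C/EBPβ.

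**Figure D3:**
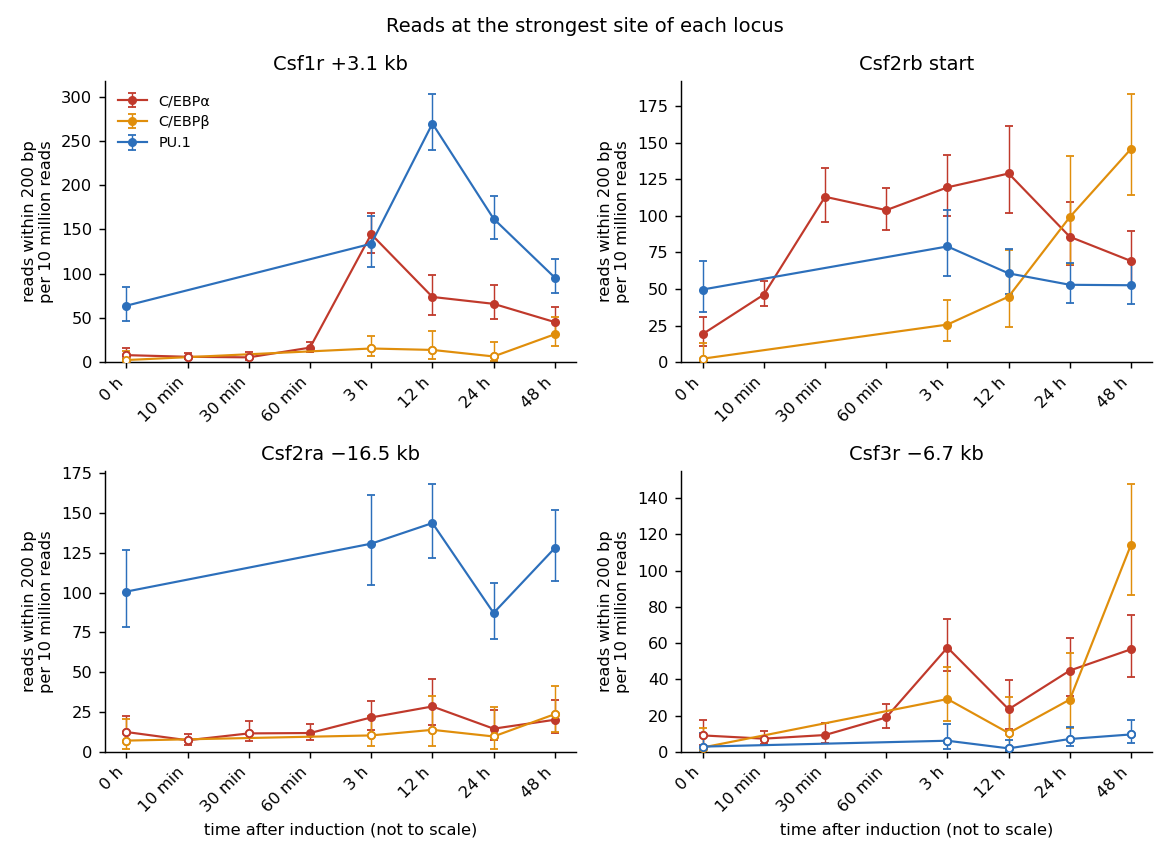
Reads within 200 bp per 10000000 reads (vertical axis) at the strongest site of each locus over time after induction (horizontal axis, not to scale), with 95% exact Poisson intervals as bars, filled points where a region was called and open points where none was. PU.1 is high from 0 hpi at Csf1r +3.1 kb, Csf2ra -16.5 kb and the Csf2rb start and stays under 10 at Csf3r -6.7 kb, while C/EBPβ is highest at 48 hpi in all 4 panels. At Csf2ra -16.5 kb, however, C/EBPβ was called in no library, and its value at 48 hpi, 23.6 (12.2 to 41.3), overlaps all earlier ones.

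The start of Csf2rb was the only member site called for C/EBPα in all 8 libraries, and it was called for PU.1 in all 5. How many sites of the genome were called in all 8 was not counted. It is the strongest site of the loci of both Csf2rb and Csf2rb2, and its centre lies 20 bp before the annotated start of Csf2rb. C/EBPα reads were 19.2 (11.2 to 30.7) at 0 hpi, 46.2 at 10 min, 113 at 30 min, 104 at 60 min, 119.5 at 3 hpi, 129 (102 to 161) at 12 hpi, 85.7 at 24 hpi and 69.1 (52.1 to 89.97) at 48 hpi. The interval at 10 min (38.1 to 55.4) already lies above that of 0 hpi, which no other of the strongest sites showed. From 0 to 48 hpi C/EBPα rose by a log2 ratio of 1.85 (1.04 to 2.73).

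C/EBPβ at the Csf2rb start had more reads at each later time, with intervals that overlap between neighbouring times after induction: 2.33 (0.06 to 13.0), 25.7, 44.8, 99.2 and 146 (114 to 183) reads at 0, 3, 12, 24 and 48 hpi. Its log2 ratio of 5.96 from 0 to 48 hpi rests on 1 read at 0 hpi and has an interval of 3.44 to 11.29. With reads within 500 bp, 8 of them at 0 hpi, it was 3.20 (2.16 to 4.45). PU.1 counted 49.6 (34.6 to 69.0), 79.1, 60.7, 52.9 and 52.6 (39.6 to 68.4) reads, a log2 ratio of 0.08 (-0.55 to 0.74). So PU.1 was present at a similar level throughout, C/EBPα was highest between 30 min and 12 hpi, and C/EBPβ was highest at 48 hpi.

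Because Csf2rb and Csf2rb2 are copies, reads that fit both were removed by the authors' alignment, which kept unique reads only. Of the 36-base words in the gene spans, 79.0% were unique in the genome for Csf2rb and 75.6% for Csf2rb2, and 89.0% and 92.9% of their repeated words were found in the other copy. The spans of Csf1r, Csf2ra and Csf3r were unique to 98.0%, 99.4% and 86.4%. With its flanks the Csf2ra locus was unique to 70.0%, the lowest of these loci. Within 200 bp of its sites the share was 66.6% at -4.0 kb, 80.3% at +28.6 kb, 98.0% at -16.5 kb and 100% at -9.8 kb. Words of other lengths were not counted, although the C/EBPβ libraries and 3 of the C/EBPα libraries had longer reads, and the part of the lost reads in differences between the copies was not tested. Within 200 bp of the site centre 87.5% of words were unique at the start of Csf2rb and the same share at the start of Csf2rb2, and 66.8% were at both Csf2rb -2.0 kb and Csf2rb2 -1.4 kb.

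Of the 33 sites nearest to one of these genes, 16 could be aligned to a stretch of the other copy. In 3 pairs both copies had a called site: the starts (93.8% identical over the aligned 404 columns), Csf2rb -2.0 kb with Csf2rb2 -1.4 kb (97.3%), and Csf2rb +8.6 kb with Csf2rb2 +6.8 kb (91.2%). The sequences of the first 2 pairs are shown to compare the copies. They are mm9 bases on the strand of each gene, at chr15:78156325-78156419 (plus) and chr15:78136053-78136156 (minus) for the starts, cut off where the first exon begins, and at chr15:78154299-78154449 (plus) and chr15:78137427-78137577 (minus) for the second pair. Capitals mark the same C/EBP and PU.1 forms as above.
Csf2rb start: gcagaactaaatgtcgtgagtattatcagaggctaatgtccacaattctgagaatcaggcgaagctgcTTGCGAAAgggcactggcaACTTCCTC
Csf2rb2 start: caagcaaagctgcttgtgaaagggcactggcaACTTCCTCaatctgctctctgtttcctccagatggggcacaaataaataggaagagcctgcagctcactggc
Csf2rb -2.0 kb: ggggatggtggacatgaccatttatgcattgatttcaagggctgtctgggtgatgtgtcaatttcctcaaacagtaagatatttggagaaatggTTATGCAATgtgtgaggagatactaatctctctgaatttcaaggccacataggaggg
Csf2rb2 -1.4 kb: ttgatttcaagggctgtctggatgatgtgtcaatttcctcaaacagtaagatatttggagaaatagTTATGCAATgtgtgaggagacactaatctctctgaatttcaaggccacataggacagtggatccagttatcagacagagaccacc

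At the starts both copies hold ACTTCCTC, which is GAGGAAGT read on the other strand, and the C/EBP form TTGCGAAA of Csf2rb is TTGTGAAA in Csf2rb2. With positions counted from 1 at the first base of the form, this difference is C4T, and it removes the match to TTGCNNAA. The 2 printed start sequences align over 40 bases, with 37 identical. In the second pair TTATGCAA, the reverse complement of a TTGCNNAA match, is the same in both copies, and 117 of 120 aligned bases are identical.

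PU.1 at the 2 starts did not differ beyond counting error, and the C/EBP factors did. Summed over its 5 libraries PU.1 had 267 reads at the Csf2rb start and 244 at the Csf2rb2 start, a ratio of 1.09 (0.916 to 1.31). C/EBPα, summed over its 8 libraries, had 812 against 219 reads, a ratio of 3.71 (3.19 to 4.32), with more reads at Csf2rb in 8 of 8 libraries and intervals that did not overlap in 7. C/EBPβ had 134 against 22 reads, a ratio of 6.09 (3.86 to 10.0), with more reads at Csf2rb in 4 of 5 libraries. Reads were counted around the site centre of each copy, and these centres are not matching bases. The base that matches the Csf2rb centre lies at -0.084 kb from the start of Csf2rb2, and the Csf2rb2 centre at -0.029 kb. The part of this offset in the ratios was not tested.

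At the start of Csf2rb2 C/EBPα counted 5.64 (1.83 to 13.2), 12.4, 31.5, 23.5, 24.3, 40.2, 23.7 and 33.9 (22.4 to 49.4) reads in its 8 libraries from 0 to 48 hpi. C/EBPβ counted 2.33, 3.42, 20.7, 6.40 and 21.7 (10.8 to 38.8) reads and was called at 48 hpi only. PU.1 counted 46.8 (32.2 to 65.7), 56.3, 51.3, 54.6 and 54.5 (41.2 to 70.6) reads and was called in all 5 libraries.

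The second pair differed as well. Its C/EBP form is the same in both copies, and the part of base differences in the reads of either pair was not tested. At Csf2rb -2.0 kb C/EBPα counted 1.13 (0.03 to 6.28) reads at 0 hpi, 4.41 at 10 min, 38.5 at 30 min, 64.0 at 60 min, 69.2 (54.6 to 86.5) at 3 hpi, and 33.5, 25.0 and 25.1 (15.4 to 38.8) at 12, 24 and 48 hpi. At Csf2rb2 -1.4 kb they were 2.26 (0.27 to 8.15), 4.01, 6.92, 6.65, 12.6 (6.88 to 21.1), 8.37, 14.5 and 5.03 (1.37 to 12.9). The former was highest at 3 hpi and called from 30 min on, the latter was called at 3 hpi alone. Summed over libraries the ratio was 4.75 (3.65 to 6.26) for C/EBPα and 2.37 (1.49 to 3.87) for C/EBPβ, and PU.1 was called at neither.

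The third pair went the other way and involved PU.1 only. At Csf2rb +8.6 kb PU.1 counted 15.6 (7.79 to 27.9), 25.9, 50.4, 44.1 and 44.9 (33.0 to 59.7) reads. At Csf2rb2 +6.8 kb it counted 18.4 (9.82 to 31.5), 30.4, 86.8, 94.3 and 69.8 (54.7 to 87.7). Summed, the ratio of Csf2rb to Csf2rb2 was 0.585 (0.484 to 0.706), with fewer reads at Csf2rb in 5 of 5 libraries and separate intervals in 2, those of 12 and 24 hpi. At both sites the values from 12 hpi on were above that of 0 hpi without overlap.

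**Figure D4:**
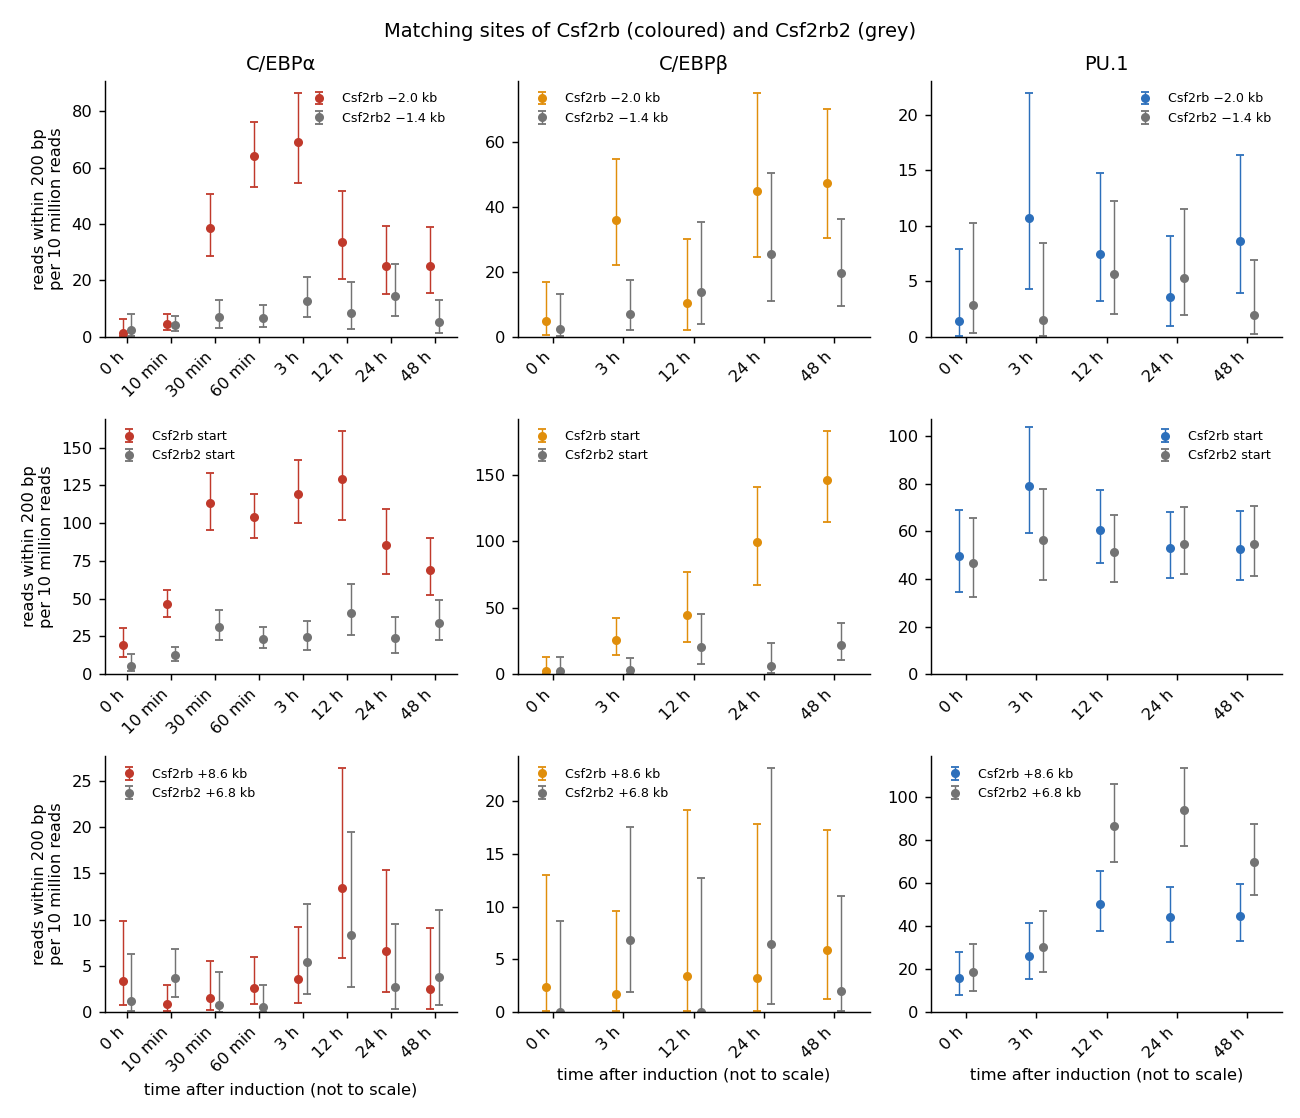
Reads within 200 bp per 10000000 reads (vertical axis) by time after induction (horizontal axis, not to scale) at 3 pairs of matching sites (rows) for the 3 factors (columns), Csf2rb coloured and Csf2rb2 grey, with 95% exact Poisson intervals as bars. At the starts the points of Csf2rb lie above those of Csf2rb2 in 8 of 8 libraries for C/EBPα and 4 of 5 for C/EBPβ (both copies had 1 read at 0 hpi), while the PU.1 intervals overlap, and in the third pair PU.1 is higher at Csf2rb2.

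Beyond the pairs, the β chain loci gained and lost PU.1. At Csf2rb2 +47.2 kb, in an intron of Ncf4, which encodes a subunit of the phagocyte NADPH oxidase, PU.1 counted 2.84 (0.34 to 10.2), 36.5, 137, 129 and 152 (129 to 177) reads over its 5 libraries, a log2 ratio of 5.74 (3.87 to 8.80) from 0 to 48 hpi. C/EBPα at that site was 9.02 (3.89 to 17.8) at 0 hpi, 112 (87.0 to 143) at 12 hpi and 39.0 (26.5 to 55.3) at 48 hpi. The site Csf2rb2 +48.2 kb in the same gene moved in the opposite direction, with PU.1 at 121 (96.3 to 149), 146, 94.3, 89.9 and 57.3 (43.7 to 73.8) reads, a log2 ratio of -1.07 (-1.57 to -0.58). At Csf2rb2 +37.6 kb, which is intergenic, PU.1 rose from 4.25 (0.88 to 12.4) to 109.9 (90.7 to 132) reads with no C/EBP call in any library.

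PU.1 fell near the start of Csf2rb. At Csf2rb -3.1 kb it counted 28.4 (17.3 to 43.8), 39.5, 20.5, 18.5 and 3.82 (1.04 to 9.79) reads, and the intervals of 0 and 48 hpi do not overlap. Over all 80 sites the PU.1 intervals of 0 and 48 hpi were apart at 13 that were higher and 3 that were lower at 48 hpi: the lower ones were Csf2ra -9.8 kb, Csf2rb -3.1 kb and Csf2rb2 +48.2 kb. For C/EBPα they were apart at 10 sites and for C/EBPβ at 10, all higher at 48 hpi. The sites were chosen by calls in these same libraries. For each C/EBP factor 14 were called at 48 hpi and not at 0 hpi, and 0 the other way. The matching shares over all sites of the genome were not counted, so whether these counts are particular to these loci is not known. Many sites had under 10 reads in a library, so smaller changes were not detectable at this depth.

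The C/EBP and PU.1 forms were counted at member sites and at all sites of the same kind. Within 75 bp of the centre TTGCNNAA was present at 11 of the 35 sites called for C/EBPα and at 26.5% of the 47671 such sites in the genome. GCAAT, which can overlap TTGCNNAA, was at 12 of the 35 and 35.1%. For the 57 PU.1 sites, GAGGAAGT was at 19 and at 21.3% of the 92434 in the genome, and GGAAGT, which is part of it, at 40 and 55.5%. At the 20 sites called for C/EBPα and never themselves for PU.1, TTGCNNAA occurred at 8 and GAGGAAGT at none. In the genome the shares were 30.8% and 1.01% of 30473 such sites. A match is a description of the letters and not evidence of contact.

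The other genes of the pathway were taken from a list of 28: 4 ligands, 10 related receptors and 14 genes that act downstream. A C/EBPα region was called at 0 hpi in 8 of their loci and at 48 hpi in 19 (13.1% and 36.2% of all protein-coding loci). For C/EBPβ these numbers were 3 and 22 (3.87% and 45.6% of all), and for PU.1 26 at both times (69.4% and 74.5% of all). By role, C/EBPα at 48 hpi was called at 2 of 4 ligands, 4 of 10 receptors and 13 of 14 downstream genes. Kit, a receptor of the same family as Csf1r, had no site of any factor, and Pdgfra, another, had 2 sites, called for no factor at 0 or 48 hpi. Flt3, with 18 sites, and Pdgfrb, with 24, are also of that family, and both loci were called for all 3 factors at 48 hpi. The Pdgfrb locus overlaps that of Csf1r, and Stat5a and Stat5b share sites.

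In 19 pathway loci a C/EBPα region was called at 48 hpi and, at that or another site, a PU.1 region at 0 hpi, as in 33.6% of all protein-coding loci. Both calls fell on one site in 11 of the 28 (15.4% of all loci), and all 3 factors at 48 hpi did in 13 (17.7% of all). The 3 with the most C/EBPα reads at 48 hpi were Il6ra, Lyn and Socs3. At Il6ra, a subunit of the IL-6 receptor, C/EBPα reads at the strongest C/EBPα site went from 57.5 at 0 hpi to 172 (145 to 204) at 48 hpi. At Lyn, a Src-family kinase of both B and myeloid cells, they went from 1.13 to 129 (106 to 157). At Socs3, a feedback inhibitor of cytokine receptors, they went from 4.51 to 112 (89.8 to 138). These sites were chosen for their C/EBPα reads at 48 hpi, and the strongest sites of the receptor genes for their reads of all 3 factors, so their levels are not compared.

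Set among the strongest sites of 11974 other loci, the members' strongest sites were not alike. By the sum of mean reads over the 3 factors, the Csf2rb start stood at percentile 92.6, Csf1r +3.1 kb at 92.3, Csf2ra -16.5 kb at 84.1 and Csf3r -6.7 kb at 58.7. For PU.1 at 0 hpi the percentiles were 69.2, 74.8, 83.9 and 7.07, and for C/EBPβ at 48 hpi 96.8, 80.9, 76.7 and 94.8, in the same order. Likeness was taken as Pearson r of log2 reads over the 18 libraries after subtracting each library's median. The most alike loci were Ada (0.96), Pnmal1 (0.95) and Sgk1 (0.94) for the Csf2rb start. For Csf1r they were Cry1 (0.80), Whrn (0.79) and Atp8b4 (0.76), for Csf2ra Pls3 (0.90), 3110001D03Rik (0.88) and Arpp19 (0.88), and for Csf3r Ufd1l (0.96), Usp8 (0.96) and Gm10010 (0.96). The 18 values of a site come from 3 antibodies and share each library's depth. A high r thus also reflects which factor is high, and does not mean the same course over time. From 0 to 48 hpi PU.1 went from 101 to 128 at Csf2ra -16.5 kb. It went from 183 to 43.0 at Pls3 and from 96.4 to 131 at 3110001D03Rik. Of the loci compared, 4.81% had r above 0.8 with the Csf2rb start, 10.4% with Csf3r -6.7 kb, 1.25% with Csf2ra -16.5 kb and 0.00835% with Csf1r +3.1 kb.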

How the data were processed

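The values start from reads that the authors aligned to mm9 by Bowtie or ELAND, allowing no mismatch (versions not given in the sources used here), with a stated filter for unique and non-identical reads. They deposited 1 line per read with chromosome, start, end and strand, and no counts. Identical reads were still present in 5 C/EBPα libraries, at most 2.51% (3 hpi). In all 18 libraries 5′ ends were moved 75 bp inward, 1 read was kept per position and strand, and reads were counted in 200-bp bins and within 200 bp of site centres, scaled to 10000000 reads. Raw reads per library, from 2903580 to 24917810, set the precision.

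Regions were called by the rules of HOMER, rebuilt in Python 3.11.15 with NumPy 2.4.6, SciPy 1.17.1, pandas 2.3.3 and Numba 0.67.0: tag thresholds of 6 to 12 reads per library from the study's peak calling table, windows of 56 to 242 bp derived from them, reads moved to the middle of the fragment (length 98 to 253 bp, estimated from the strands), 4 times the density of the surrounding 10 kb, local Poisson p of at most 0.0001, and a genome of 2000000000 bp. The caller was tested on simulated data. Regions of all libraries within 200 bp were joined into 125645 sites, genome-wide. The strongest site of a locus has the largest sum of mean reads over the 3 factors. The share of 36-base words found once in the genome was counted on both strands. Sites of Csf2rb and Csf2rb2 were matched by local alignment (match 1, mismatch -1, gap -2, at least 150 columns and 75% identity). Ratios have exact binomial intervals. Genes were those of GENCODE vM1. The members, the gene lists and the rules for naming genes were chosen with earlier results of these data known, and the matching of the 2 copies and their sequences to show were chosen after the values were seen. Named genes were all members, the 3 most alike loci per member, and the 3 pathway genes with the most C/EBPα reads at 48 hpi. PU.1 libraries of 10, 30 and 60 min were not analysed here.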

Additional observations from a re-analysis of the deposited data

How the results depend on the processing

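Site numbers and log2 ratios were recomputed under each alternative, with 1 choice changed at a time. Keeping identical reads was 1 alternative, and it could not change C/EBPβ or PU.1 values, whose libraries held no identical reads. A tag threshold 1.5 times higher left 20 sites of C/EBPα and 8 of C/EBPβ (35 and 17 as reported), and a flank of 10 kb left 23 and 11. The other 20 counts of 24 stayed within 1.5 times, PU.1 always among them. Of the log2 ratios from 0 to 48 hpi at the strongest sites, 58 of 59 alternative values stayed within the interval of the reported one. The exception was C/EBPβ at the Csf2rb start with reads within 500 bp, 3.20, because 8 reads in place of 1 then fell into the window at 0 hpi. The intervals of C/EBPβ are wide, 3.44 to 11.29 at this site, so staying within them is a weak requirement. Within 100 bp no ratio could be computed for C/EBPβ at Csf3r -6.7 kb, which had 0 reads at 0 hpi. For the matched copies, alternatives chosen after seeing the data gave 1 value of 18 outside the reported interval: C/EBPα at the starts with reads within 100 bp, 2.17 against 1.89 on the log2 scale. With 1 library per factor and time point, no replicate could be left out and no paired analysis was possible. Depth limits the C/EBPβ values most, since 1 read is 3.44 units in the 12-hpi library.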
